A study of Homo sapiens with 52 samples.

Results

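HOX genes encode homeodomain transcription factors that give cells their position along the body axis. Human HOX genes lie in the clusters HOXA, HOXB, HOXC and HOXD, which arose by duplication, and the genes of a cluster are ordered by paralogue group. In mice, HOXD is bordered by gene deserts that hold its limb enhancers, and HOXA genes also answer to enhancers outside the cluster. In blood, HOXA and HOXB genes are active in stem and progenitor cells and are commonly misregulated in leukaemia. Chromatin at the nuclear lamina, the protein mesh under the nuclear envelope, is in general poor in active genes.

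The HOX clusters were taken as the bins of 100 kb (hg19) that overlap the range of each cluster, and the flanks as the bins of 3 Mb on each side. The rule uses position and no measured value, but it was written with earlier results of these data known. The clusters took up 9 of the 30376 bins, and their flanks 240. The 38 listed genes divide into 10 of HOXA, 10 of HOXB, 9 of HOXC and 9 of HOXD. Bins are the finest unit of the data, so the genes of a cluster share its values and no gene has a value of its own.

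The values came from single-cell DamID in KBM7, an established human chronic myeloid leukaemia line, here clone 14 with ploidy 2N. All cells carried Dam methyltransferase fused to LaminB1, were treated with 0.5 nM Shield1 for 15 h to induce methylation, and were sorted singly from the 2% of smallest size among those with both Fucci cell-cycle markers. The line is 1 clone, no control cells were analysed here, and a cell's value sums both copies of a chromosome. The labels describe 52 cells, of which the 51 with a column were used. They name no separate cultures, so the cells count as 1 sample, no p-value is given, and each SD is a spread over cells.

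Signal is given as OE, the ratio of observed to expected signal, and a bin was called in contact at an OE of at least 1. Reads recovered from the ratios ranged from 50978 to 316463 per cell (median 142540). Depending on the cell, 2.12 to 13.2 reads made up an OE of 1 in a typical bin, that with the median expected number. Contact covered 31.5% ± 3.56 of 26584 measured bins (SD, n = 51 cells). Intervals below are 95% exact intervals, cover counting error only, and treat cells or reads as independent, which PCR reads without molecular identifiers are not.

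Dam methylates adenine in the sequence GATC, so the measurement rests on these sites. The promoters of HOXA11 and HOXD11, paralogues that help to pattern the forelimb in mice, are shown because they carry the same number of sites in clusters whose flanks differed in contact near the cluster. Each window runs from 250 bases before to 50 after the start (RefSeq, GRCh38.p14), and capitals mark GATC. The HOXA11 window lies at chr7:27185183-27185482 on the minus strand and the HOXD11 window at chr2:176107030-176107329 on the plus strand. These positions are not on hg19 and were not used to place genes in bins.
HOXA11: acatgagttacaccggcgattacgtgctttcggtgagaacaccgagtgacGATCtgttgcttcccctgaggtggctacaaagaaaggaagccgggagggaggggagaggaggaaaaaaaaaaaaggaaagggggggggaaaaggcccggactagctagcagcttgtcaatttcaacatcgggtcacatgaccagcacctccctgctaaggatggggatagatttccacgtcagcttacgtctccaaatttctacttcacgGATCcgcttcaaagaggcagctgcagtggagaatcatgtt
HOXD11: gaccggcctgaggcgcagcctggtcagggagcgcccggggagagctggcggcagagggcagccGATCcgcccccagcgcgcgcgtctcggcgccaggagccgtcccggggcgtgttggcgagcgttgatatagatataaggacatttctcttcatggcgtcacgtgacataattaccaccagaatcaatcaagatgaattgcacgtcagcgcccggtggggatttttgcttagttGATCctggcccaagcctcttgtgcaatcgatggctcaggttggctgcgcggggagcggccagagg

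Both windows held 2 GATC sites. GATC reads the same on both strands, and no other motif was searched. Of the 38 listed genes, 20 had a promoter in the RefSeq table, with 27 windows in all. Of these, 12 (44.4%) held GATC, against 41.7% of all 35116 windows. The clusters also hold related microRNA genes, shown because they mark shared ancestry across clusters. The mature sequences of the miR-196 family follow (RefSeq, GRCh38.p14), with the seed, bases 2 to 8, in capitals.
hsa-miR-196b-5p of HOXA: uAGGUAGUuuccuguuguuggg
hsa-miR-196a-5p of HOXB and HOXC: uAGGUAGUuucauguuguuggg

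The seed is shared, and the 22 bases differ by C12A from the first to the second, counted from the 5′ end. The mature sequence of MIR196B lies at chr7:27169528-27169549 on the minus strand, that of MIR196A1 in HOXB at chr17:48632532-48632553 on the minus strand and that of MIR196A2 in HOXC at chr12:53991762-53991783 on the plus strand.

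The clusters themselves were nearly free of lamina contact. Of their 9 bins, 7 were contacted in no cell, where 38.7% of all measured bins were, and the remaining 2 bins, both in HOXD, were contacted in 2 cells each. Of the 8 cluster bins that held a read in any cell, 6 were without contact, against 33.8% of all such bins. Over all clusters, 0.871% ± 3.75 of bins were contacted per cell, against 13.5% ± 5.13 in their flanks (SD, n = 51). The clusters were lower than the flanks in 49 cells and higher in 2.

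**Figure D1:**
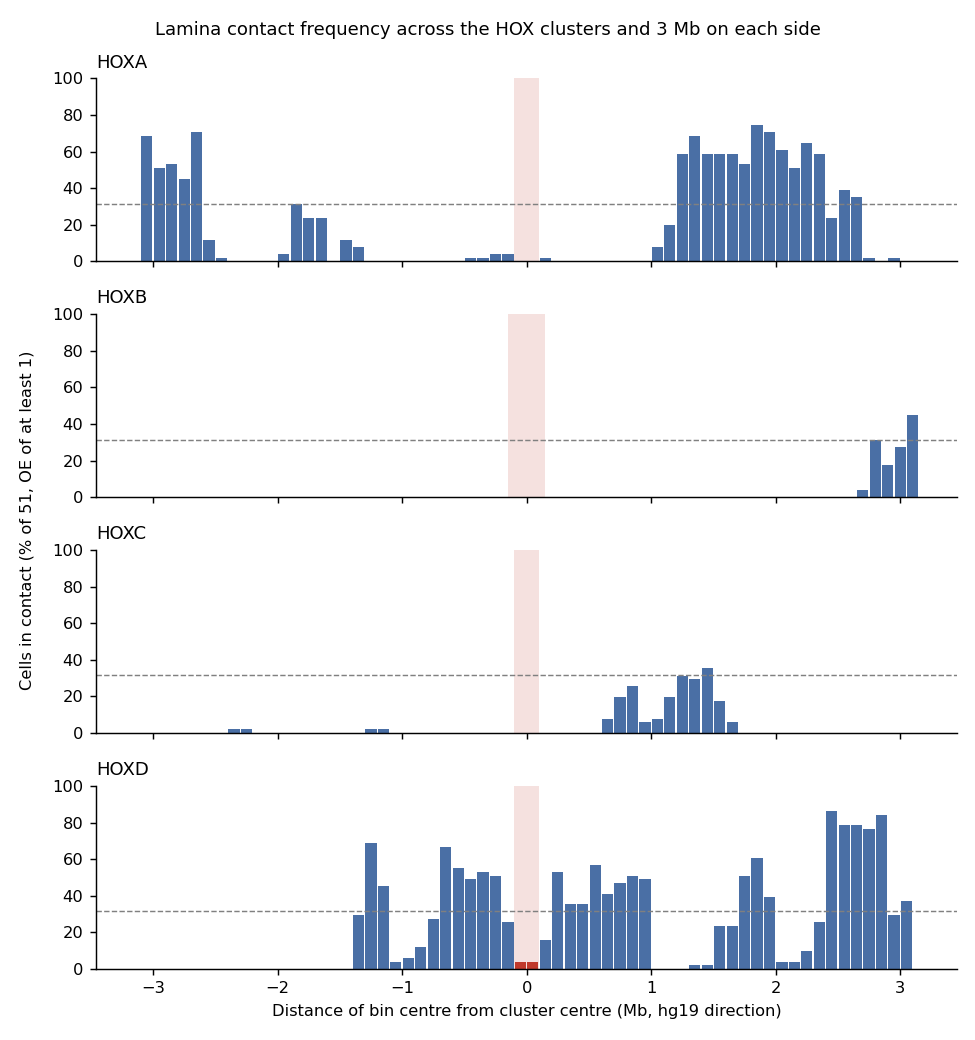
Contact frequency (percent of 51 cells with an OE of at least 1, vertical axis) of each 100 kb bin by its distance from the cluster centre (Mb, horizontal axis), with cluster bins in red on a shaded band, flank bins in blue and the genome mean of 31.5% as a dashed line. Cluster bins rise above 0 at HOXD alone, to 3.92%, between flank bins that reach 66.7% within 1 Mb on the lower side and 56.9% on the higher.

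HOXA, which holds HOXA9 and HOXA10, genes active in blood progenitors and in many leukaemias, had no contact in any of the 51 cells. Its bins, chr7:27100001-27300000, held 22 reads over all cells, and 5 cells had a read there. Mean OE over both bins was lowest at 0, had a median of 0 and was highest at 0.382, in cell 21. Pooled over cells, the cluster's OE was 0.0274 (interval 0.0172 to 0.0415). With 0 of 51 cells called in a bin, the exact interval reaches 6.98% of cells and the 3-count limit 5.88%, and both hold for HOXB and HOXC as well.

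HOXB was also without contact, as were the measured bins within 2.5 Mb of it on either side. Its bins, chr17:46600001-46900000, held 8 reads in 4 cells, with a pooled OE of 0.0105 (interval 0.00452 to 0.0206) over the 2 bins with reads. The third held no read in any cell, and its expected number is unknown. Within 1 Mb the pooled OE of bins with reads was 0.00519 on the side of lower coordinates, where 3 of 10 bins held none, and 0.0085 on the side of higher coordinates, where 4 of 10 held none. Over all bins, mean OE per cell was 0.00278 ± 0.00772 and 0.00448 ± 0.0140 on these sides.

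HOXC, which holds HOXC4 to HOXC13, had no contact in its bins, chr12:54300001-54500000. They held 4 reads in 4 cells, and the pooled OE was 0.00709 (interval 0.00193 to 0.0181). The intervals of HOXB and HOXC overlap widely, and that of HOXA overlaps both at its lower end only. Overlap does not by itself show that values are alike. The order of these clusters in pooled OE was not tested.

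HOXD stood above the other clusters in signal while remaining mostly below the threshold for contact. Its bins, chr2:176900001-177100000, held 216 reads in 40 cells, and the pooled OE was 0.291 (interval 0.253 to 0.332). Mean OE per cell was lowest at 0, had a median of 0.221 and was highest at 1.42. The intervals of the other 3 clusters lay below that of HOXD. In the first bin 2 of 51 cells were in contact (3.92%, interval 0.478% to 13.5%), and the second bin had the same count.

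**Figure D2:**
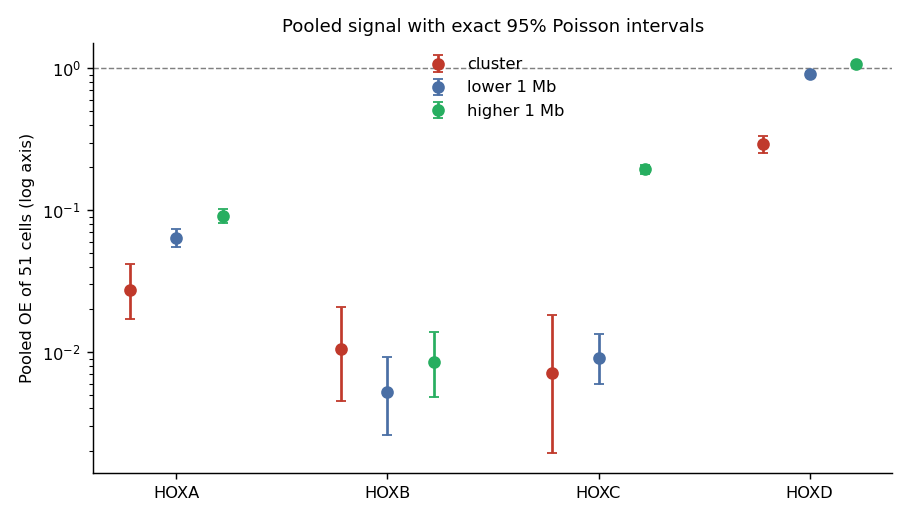
Pooled OE of 51 cells (log axis) for each cluster (red), for the 1 Mb of lower coordinates (blue) and for the 1 Mb of higher coordinates (green), with exact 95% Poisson intervals and a dashed line at an OE of 1. The HOXD cluster lies at 0.291, below both of its sides at 0.911 and 1.07.

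The contact share of HOXA minus that of HOXD was -3.92 points ± 16.9 (SD, n = 51), below 0 in 3 cells and 0 in 48. HOXB and HOXC gave the same difference from HOXD, since none of these 3 clusters was contacted in any cell. The HOXD contacts came from cells 4, 41 and 52. In cell 4 both bins were contacted, with an OE of 1.63 from 11 reads and of 1.21 from 7 reads. Cell 41 had an OE of 0 in the first bin and 1.46 from 9 reads in the second. In cell 52 the bins had an OE of 1.12 from 5 reads and of 0.785 from 3 reads. Without cell 4 the HOXD share would be 2.00%, against 3.92% ± 16.9 with it. The low share also rests on the threshold. At an OE of at least 0.5, 20 cells had contact in HOXD and the share was 23.5%, while at an OE of at least 2 no cell had. The genome's share was 38.8% at the first of these thresholds and 20.0% at the second. When all cells were thinned to 50978 reads, 8 cells had contact in HOXD and the share was 9.80%, against 29.9% for the genome. With the adjoining bin on each side counted in, it was 12.3%, in 18 cells.

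Whether the surroundings of the clusters touched the lamina was examined next, within the same cells. The flanks of the 4 clusters differed widely. Bins in contact made up 26.5% ± 14.7 of the HOXD flanks and 21.4% ± 12.5 of the HOXA flanks, but 3.56% ± 4.85 of the HOXC flanks and 2.13% ± 2.37 of the HOXB flanks (SD, n = 51). At least 50% of cells contacted 15 of 60 flank bins at HOXD, 16 of 60 at HOXA, 0 of 60 at HOXC and 0 of 59 at HOXB, where 32.1% of all measured bins were contacted that often.

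The HOXD cluster was lower than its flanks by 22.6 points on average, with a mean difference of -22.6 ± 22.3 (SD, n = 51). It was lower in 44 cells, higher in 3 and equal in 4, and the 3 were the cells with a contacted cluster. HOXA was lower than its flanks in 50 cells, with a difference of -21.4 ± 12.5, and equal in 1. For HOXC the difference was -3.56 ± 4.85, lower in 25 cells. For HOXB it was -2.13 ± 2.37, lower in 30 cells. As a background, of 24163 windows of 2 bins over the genome, 29.9% were lower than their flanks in at least as many cells as HOXD, 14.3% in as many as HOXA and 50.6% in as many as HOXC. Of 24094 windows of 3 bins, 45.7% were so in as many cells as HOXB. A mean difference at least as large was found in 21.1% of windows for HOXD, 22.3% for HOXA, 44.8% for HOXC and 47.7% for HOXB. Drops of these sizes were thus common over the genome. Windows of 2 bins without any contact made up 32.1%, and windows of 3 bins 28.9%.

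**Figure D3:**
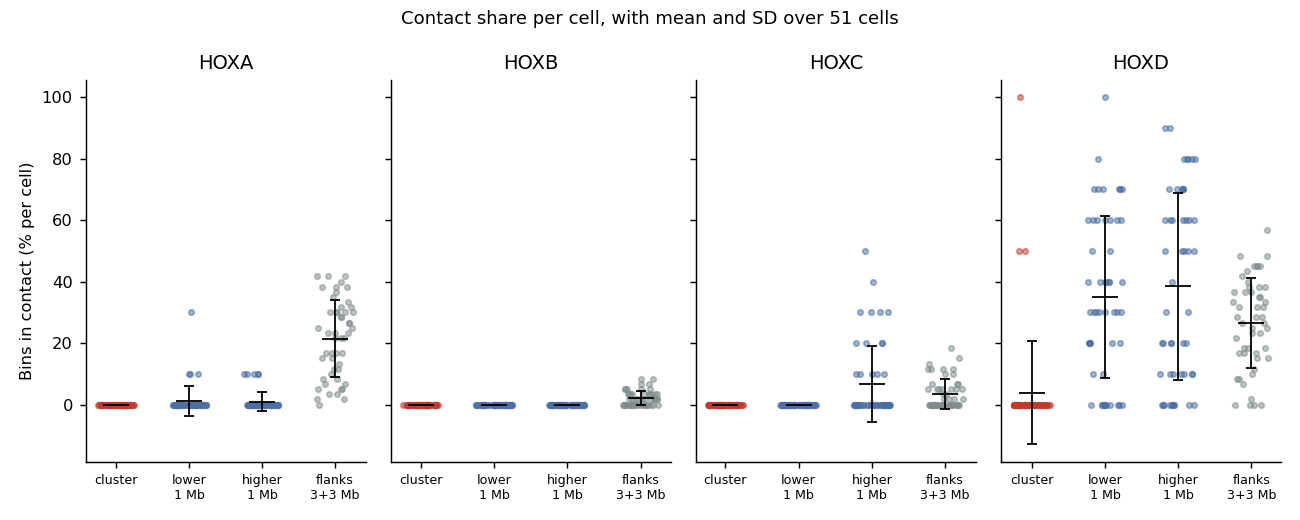
Percent of bins in contact in each of 51 cells (points) for the cluster, for 1 Mb on the side of lower and of higher coordinates, and for both 3 Mb flanks, with black bars for the mean and SD, which can reach below 0. Points of the HOXD cluster lie at 0 except in 3 cells, while its 1 Mb sides reach 100% and 90%.

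What set HOXD apart from the other clusters was how close contact came. The low-contact stretch around it, made of neighbouring bins that 10% of cells or fewer contacted, was 0.2 Mb long and covered just the cluster's own bins. Around HOXA it was 2.5 Mb (chr7:25800001-28300000) and around HOXC 9.6 Mb (chr12:45500001-55100000). Around HOXB it was 4.9 Mb (chr17:44600001-49500000), and a bin without a value set its lower end. With a limit of 20% the HOXD stretch was 0.3 Mb and that of HOXA 2.8 Mb. The median uncontacted length between HOXD and the nearest contacted bin was 0.1 Mb on either side. For HOXA it was 1.7 Mb on the side of lower coordinates and 1.1 Mb on the other.

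On the side of lower coordinates from the HOXD genes lie EVX2, a homeobox gene, and LNPK, which encodes a protein of the endoplasmic reticulum, by gene order in GRCh38.p14. This is the side of HOXD13, which patterns the digits. Gene order does not show whether a neighbouring gene lies in a flank bin or in the cluster's own bins. The bin next to the cluster, chr2:176800001-176900000, was contacted in 13 cells, with a mean OE of 0.761 ± 0.923. The next bins outward were contacted in 26, 27, 25, 28 and 34 cells, the last at chr2:176300001-176400000 with a mean OE of 1.68 ± 1.29. Frequency then declined to 2 cells at chr2:175900001-176000000. The most contacted bin of this flank, chr2:175700001-175800000, was contacted in 35 cells (68.6%). The flank's outermost 1 Mb had no contact in any cell.

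On the side of higher coordinates, beyond HOXD1, lies MTX2, which encodes a mitochondrial import protein. The bin next to the cluster, chr2:177100001-177200000, was contacted in 8 cells, with a mean OE of 0.499 ± 0.550. The next 8 bins were contacted in 18 to 29 cells, and chr2:178000001-178100000 in none. Thus both bins that adjoin the cluster were intermediate between the cluster and the bins directly beyond them. Farther out within the same 1 Mb, each side also held bins with less contact than its adjoining bin. Farther out, chr2:179400001-179900000 was the nearest run of at least 3 bins contacted in at least 50% of cells. It was contacted in 80.8% ± 31.7 of its bins, and over its whole length in 32 cells. Its first bin was the most contacted of all flank bins at the 4 clusters, with 44 cells and a mean OE of 2.94.

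Within 1 Mb of HOXD, contact covered 34.9% ± 26.4 of bins on the lower side and 38.4% ± 30.5 on the higher side, against 3.92% ± 16.9 of the cluster. Lower minus higher was -3.53 points ± 22.6, with 19 cells above 0 and 23 below, a mean difference smaller than its SD over cells. Over the full 3 Mb the sides did differ, with 16.4% ± 11.1 on the lower and 36.7% ± 20.1 on the higher side. Lower minus higher was then -20.3 points ± 13.9, below 0 in 45 cells, above 0 in 1 and 0 in 5. This difference lay mostly in the outermost 1 Mb, with contact in 0% of bins on the lower side and 51.0% ± 23.8 on the higher. With flanks of 2 Mb it was -4.90 ± 13.9, above 0 in 16 cells and below in 23. In single cells the lower side within 1 Mb had 0% at the least, a median of 30.0% and 100% at the most, in cell 46. The higher side within 1 Mb had 0%, 40.0% and 90%. The drop at the cluster was present in the OE values too, without a contact threshold. Mean OE was 0.289 ± 0.280 in the cluster and, within 1 Mb, 0.901 ± 0.647 on the lower side and 1.05 ± 0.766 on the higher side. The cluster was below both sides in 47 of 51 cells and above both in 1.

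Contact on both sides with none between was the usual state at HOXD. Of the 51 cells, 37 had contact within 1 Mb on both sides, and 36 of these had none in the cluster. Cell 4 was the exception, and in it contact ran unbroken through the cluster into both adjoining bins. Over the genome, 3.41% of 24157 windows of 2 bins showed contact on both sides with none between in at least 36 cells. Of the 10236 windows with a contact share at or below that of HOXD, 210 (2.05%) had sides contacted at least as much on both. These windows overlap and their bound is HOXD's own value, so the shares are a description. At an OE of at least 0.5 the count of such cells at HOXD was 26 of 44 with contact on both sides. At an OE of at least 2 it was 18 of 18, which had to follow, since no cell reached that OE in the cluster. Windows over the genome were not counted at these other thresholds, so these counts have no background.

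**Figure D4:**
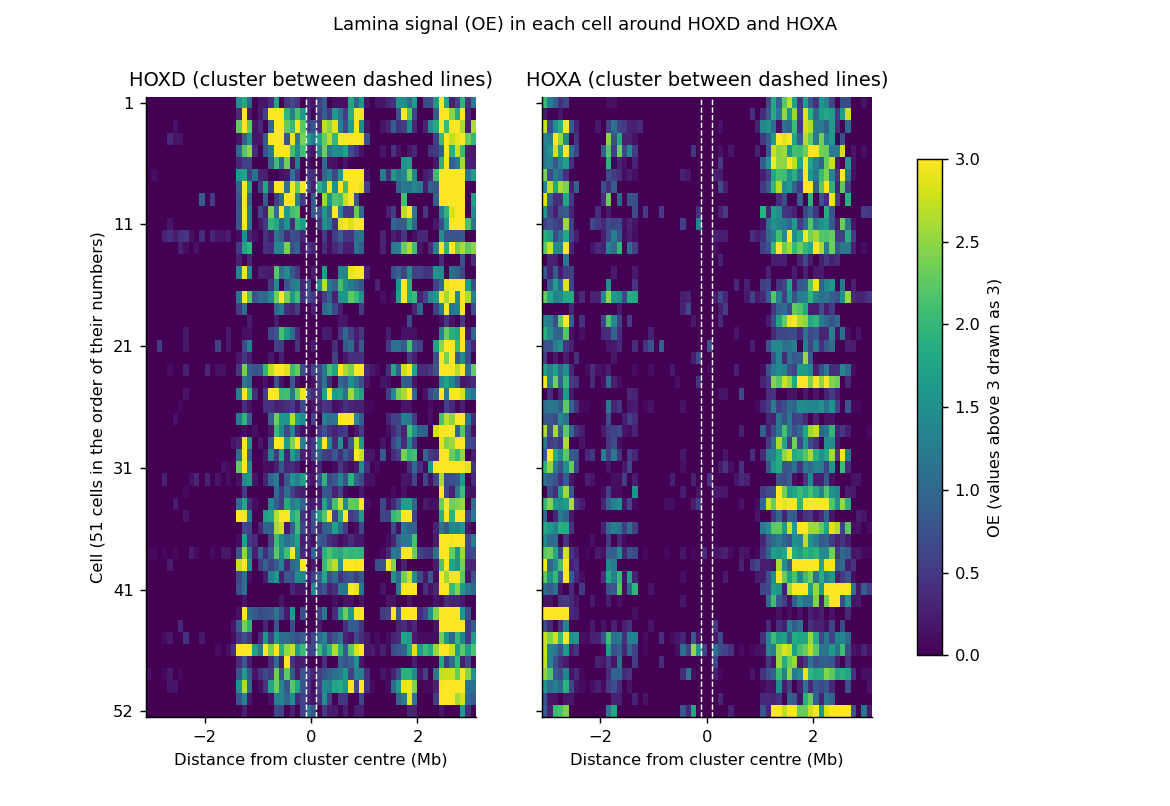
OE (colour, values above 3 drawn as 3) in each of 51 cells (rows, in the order of their numbers) by distance from the cluster centre (Mb), for HOXD on the left and HOXA on the right, with dashed lines at the cluster's edges. A narrow dark gap is seen at HOXD in most cells with signal on both sides, and a dark stretch of over 2 Mb at HOXA.

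The sides of HOXD varied together from cell to cell. Of the 40 cells with contact within 1 Mb on the lower side, 37 also had contact on the higher side, against 4 of the 11 cells without. The contact shares of the sides correlated over the 51 cells (Pearson's r 0.693, Spearman's rho 0.695). With each cell's genome share subtracted, r was 0.683 and rho 0.670. The points share their library, depth and chromosome, and the cells are not independent samples. Among 4337 windows of 2 bins over the genome with 20% to 80% contact on both sides, r had a median of 0.547 and quartiles of 0.429 and 0.660. In 18.9% of them it was at least as high as at HOXD, so this covariation was not particular to HOXD. The full flanks of HOXA correlated with an r of 0.613 (rho 0.636), and those of HOXD with 0.749 (rho 0.735). With the genome share subtracted, r was 0.5145 (rho 0.523) for HOXA and 0.726 (rho 0.703) for HOXD. The flanks of HOXD and of HOXA, on different chromosomes, correlated with an r of 0.126 (rho 0.112).

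In 4 cells, 14, 19, 26 and 42, no flank bin of HOXD was in contact. Cell 26 had the most reads of all cells, 316463, and the highest contact share of the genome, 39.9%, yet its highest OE in the 62 bins around and within HOXD was 0.662. These bins held 122 of its reads, where an OE of 1 throughout would have been 861. Cell 14 had 77404 reads and a genome share of 27.1%, cell 19 had 110037 reads and 29.9%, and cell 42 had 134913 reads and 24.1%. The cells without HOXD flank contact thus held both the deepest library and 3 below the median depth. Over all cells the contact share of the HOXD flanks correlated with recovered reads at 0.180 (rho 0.158) and with the genome share at 0.287 (rho 0.287). With the cells farthest from the median of each left out, Pearson's r was 0.320 and 0.355.

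HOXA lay in a wider quiet interval. On its lower side follow SKAP2, a signalling adaptor, SNX10, a sorting nexin, and CBX3, a heterochromatin protein. Contact within 1 Mb there covered 1.18% ± 4.75 of bins, and 4 cells had any. The bin next to the cluster was contacted in 2 cells. By gene order, EVX1, a homeobox gene, and HIBADH, an enzyme of valine breakdown, follow the HOXA genes on the higher side. Whether they lie in flank bins or in the cluster's own bins was not determined. The 1 Mb of flank bins on this side had contact in 0.980% ± 3.00 of bins, in 5 cells. Beyond it, chr7:28400001-29600000 formed a run of 12 bins, each contacted in 26 to 38 cells. Its contacted share was 61.4% ± 35.4 per cell (lowest 0%, median 66.7%, highest 100%). In 12 cells it was contacted throughout and in 5 not at all. Its most contacted bin, chr7:29000001-29100000, had a mean OE of 1.88. On the lower side the nearest such run was chr7:24100001-24400000, at the window's edge, 2.7 Mb from the cluster, with 57.5% ± 39.5. The most contacted bin of the lower flank, chr7:24500001-24600000, lay outside this run and was contacted in 36 cells. The lower flank as a whole had 13.9% ± 10.1 and the higher flank 29.0% ± 17.5, and lower minus higher was -15.1 points ± 13.8, below 0 in 40 cells and above 0 in 7.

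HOXC and HOXB had contact on 1 side only, apart from 2 cells. At HOXC the higher side, that of HOXC4 to HOXC6, SMUG1, a DNA repair enzyme, and CBX5, a heterochromatin protein, was contacted in 25 cells. All of this contact lay within chr12:55000001-56100000, from 0.5 Mb beyond the cluster, and no bin farther out in this flank was contacted. The most contacted bin of this side, chr12:55800001-55900000, was contacted in 18 cells (35.3%). The 1 Mb next to the cluster was contacted in 6.67% ± 12.3 of bins, with 50.0% at the most. On the lower side, where CALCOCO1 follows HOXC13, 2 cells had contact within 3 Mb. Lower minus higher was -6.60 points ± 9.81, below 0 in 23 cells and above 0 in 1. At HOXB the higher side, beyond HOXB13, a gene of prostate and hindgut, and TTLL6, had contact in 30 cells, all of it at least 2.5 Mb from the cluster. Its most contacted bin was the outermost, chr17:49800001-49900000, with 23 cells. The lower side, where SKAP1 and SNX11 lie, had no contact in any cell in its 29 measured bins, 16 of which held no read.

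All 4 clusters lay below their own chromosome and the genome, but chromosomes differed. The cluster's share minus that of the rest of its chromosome was -29.98 points ± 18.9 for HOXD, -34.7 ± 4.69 for HOXA and -28.2 ± 7.11 for HOXC. For HOXB, whose chromosome 17 was contacted in 10.2% ± 3.80 of its other bins, it was -10.2 ± 3.80. The cluster was lower in 48 cells for HOXD and in all 51 cells for the others. For the others this count follows from their lack of contact, since the rest of each chromosome had contact in every cell. Any window without contact on these chromosomes would give the same count, and such windows made up 32.1% (2 bins) and 28.9% (3 bins) over the genome. The HOXD flanks came near to the genome's share, with a difference of -4.95 points ± 14.1, above 0 in 21 cells and below in 30. The HOXA flanks differed from the genome by -10.1 ± 11.0, below in 40 cells. Those of HOXC and HOXB were below it in all 51 cells, by -27.9 ± 6.11 and -29.4 ± 3.48.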

How the data were processed

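Single-cell LaminB1 DamID of KBM7 clone 14 was analysed. The submitters' processing notes name Cutadapt, Bowtie2 2.1.0 and the build hg19. Per the file headers, the authors deposited 1 column of OE, a ratio (observed over expected), for each cell in bins of 100 kb. How the expected signal was made and why bins lack values is not given in the sources used here. Of 30376 bins, 26584 had values. Each ratio above 0 is a whole number of reads times a cell factor over a whole expected number of the bin, and 100% came out whole within 0.02 reads. Where few cells have reads in a bin, as in the bins of HOXA, HOXB and HOXC, the recovered expected number may be a divisor of the true one. This leaves the ratio as deposited, but the reads, pooled OE and intervals given there could then differ. On simulated data over 3000 bins and 5 cells, 97.0% of values above 0 were recovered. Even the lower simulated level of signal was above the pooled OE of HOXA, HOXB and HOXC. This share therefore does not show how well reads were recovered in their bins. Python 3.11.15, numpy 2.4.6 and scipy 1.17.1 were used. Windows over the genome needed 90% of flank bins measured.

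The members, gene lists and rules were chosen with earlier results of these data known. Named flank bins are the most contacted of each side, and runs are the nearest with 3 or more bins that 50% or more of the cells contacted. No hg19 annotation was used, so genes were not placed in bins, and cofactor and regulator genes of HOX were not analysed here. Gene order came from GRCh38.p14.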

Additional observations from a re-analysis of the deposited data

How the results depend on the processing

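No paired analysis was possible because the labels give 1 group of cells, so no replicate numbers pair samples across groups. Clusters and flanks were instead compared within cells. Of 228 recomputed values, 66 were 0 both as reported and as recomputed, and these show nothing of stability. The SD of the HOXD share, 16.9 points around 3.92%, is too wide to serve as a measure of it. With an OE of at least 0.5, the HOXD share was 23.5%, that of HOXA 1.96%, and 2 flank bins of HOXB and 27 of HOXD were contacted in at least 50% of cells. The difference HOXA minus HOXB and that of HOXA minus HOXC was then 1.96 points, HOXA minus HOXD -21.6, and HOXB or HOXC minus HOXD -23.5. With an OE of at least 2, the HOXD share was 0%, HOXA minus its flanks was -8.73 points, and 0 flank bins of HOXA and 5 of HOXD reached 50%. These shifts follow the threshold. How many bins over the whole genome reached 50% was not counted at these other thresholds. The flank counts there thus have no background, since the 32.1% given earlier holds for the main threshold only. After thinning to 50978 reads the HOXD share was 9.80% and the HOXA share 0.980%, HOXA minus HOXB and HOXA minus HOXC were 0.980 points, HOXA minus HOXD was -8.82, and HOXB or HOXC minus HOXD -9.80. With 1 bin added on each side the HOXD share was 12.3% and the HOXA share 1.47%. In odd-numbered cells the HOXD share was 2.00% and in even-numbered cells 5.77%. With flanks of 1 Mb, HOXA minus flanks was -1.08, its lower minus higher flank turned to 0.196 (4 cells each way), and that of HOXD was -3.53. With 2 Mb the last was -4.90. In even-numbered cells 1 HOXB flank bin reached 50%; the cause was not tested. The HOXD cluster stayed below its flanks on average in every alternative run, with differences of -32.7 to -13.5 points, of which that at an OE of at least 0.5 was -13.5, that at an OE of at least 2 -13.8 and that with 1 bin added -14.5. Leaving out cell 4, 41 or 52, chosen after seeing the data, gave a HOXD share of 2.00% to 3.00%. Depth limits single bins most in cell 9, where an OE of 1 rests on 2.12 reads.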
